A study of Mus musculus with 18 samples.

Results

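The 39 genes described here encode the machinery by which the endoplasmic reticulum (ER) folds, checks and sends on secreted and membrane proteins. They were taken by symbol from a fixed list, and all 39 were found among the 43346 genes counted. The list was chosen with earlier results of these data known. By role they comprise 15 chaperones and folding enzymes, 7 sensors and transcription factors of the unfolded protein response (UPR), 3 genes of ER-associated degradation, 7 of the translocon, 4 of the signal peptidase, and a group of 3 made up of the receptors Kdelr2 and Kdelr3 and the sugar donor enzyme Gmppb.

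The study sorted Epcam+ Lgr5+ cells by GFP level from crypts of the small intestine (SI) and the large intestine (LI) of mice. High GFP was taken as centre, mid GFP as border and low GFP as row >3 cells, and each of the 6 groups had 3 replicates, 18 libraries in all. Every group came from untreated animals of genotype Lgr5_eGFP_Iris_creERT2 and strain C57BL/6, aged 8 to 20 weeks by the labels, so the knock-in allele, in which the Lgr5 locus drives GFP and a tamoxifen-dependent Cre, was shared by all. GFP in this model stands in for Lgr5, and the study gives its replicates as mice without tying a replicate number to an animal. Library totals lay between 8312093 and 31940965 counts. Levels below are normalised counts, that is, counts divided by 1 size factor per library. A gene was called when its p-value from the quasi-likelihood test of edgeR, adjusted by Benjamini-Hochberg over the 26717 genes tested, was under 0.05.

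Proteins bound for secretion enter the ER through the Sec61 channel, lose their signal peptide to the signal peptidase, and are folded with the help of lumenal chaperones and protein disulphide isomerases. When unfolded protein accumulates, the sensors Ire1 (encoded by Ern1 and, in mucous epithelia, Ern2), Atf6 and Perk switch on transcription of chaperones and degradation factors, in part through Xbp1 and Atf4. In the intestine this pathway is known above all from goblet and Paneth cells, which secrete mucins and antimicrobial peptides.

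One feature of the libraries bears on all SI values. The 3 SI libraries of replicate 3 stood apart from the other SI libraries by genes that are high in the LI. Car1, a carbonic anhydrase, had 1668, 22796 and 38981 normalised counts in centre, border and row >3 replicate 3 of the SI, against at most 215 in the other 6 SI libraries. Reg4, a marker of deep crypt secretory cells, had 25348, 23446 and 51424 there against at most 1737. Lgr5 itself, the gene the sort stands for, had 5252, 4191 and 2434 in SI centre, 1610, 2028 and 157 in SI border and 170, 280 and 28.1 in SI row >3 replicates 1, 2 and 3. SI border replicate 3 thus had less Lgr5 than row >3 replicates 1 and 2, although within replicate 3 the order of the levels was kept. Olfm4, a stem cell marker of the SI, had 24346, 54428 and 1030 in the border libraries. The labels give these libraries as SI, and they were kept. Calls in the SI are therefore given with and without them, and the part of this feature in any result was not tested.

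Of the 39 genes, 28 matched a RefSeq promoter window of GRCm38.p6, from 250 bases before to 50 bases after the annotated start. These windows were searched on both strands for the letters of 3 elements known from UPR promoters. The genes were listed for their part in the ER and the UPR. A share of matches above that of all promoters could therefore follow from the choice of the list alone. The matches were not tested against the levels. The ER stress response element (ERSE), spelled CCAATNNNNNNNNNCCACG, was found in 7 of the 28 windows, against 0.119% of all 32851 promoter windows. ERSE-II, which is ATTGG, any single base and then CCACG, was found in Dnajb11 and Herpud1, against 0.0365% of all windows, and the UPR element TGACGTGG in Kdelr3, against 0.676%. The 5 letters CCACG alone, which end both ERSE elements, were in 22 of the 28 windows and in 32.8% of all. The matches that lie wholly before the start are given as they read on the gene's strand, with 5 flanking bases on each side. Capitals mark the match, which stands in reverse orientation in Calr, Creld2, Kdelr3 and the second Hsp90b1 site. The first 8 lines are ERSE, Herpud1 is ERSE-II and Kdelr3 is the UPR element.
Hspa5 (chr2:34772020-34772048, plus strand): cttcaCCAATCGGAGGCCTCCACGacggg
Hsp90b1 (chr10:86705633-86705661, minus strand): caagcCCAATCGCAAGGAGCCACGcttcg
Hsp90b1 (chr10:86705528-86705556, minus strand): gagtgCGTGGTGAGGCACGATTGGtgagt
Canx (chr11:50325795-50325823, minus strand): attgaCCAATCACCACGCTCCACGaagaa
Pdia6 (chr12:17266486-17266514, plus strand): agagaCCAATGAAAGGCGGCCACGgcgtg
Dnajc3 (chr14:118937822-118937850, plus strand): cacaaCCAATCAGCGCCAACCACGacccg
Calr (chr8:84847070-84847098, minus strand): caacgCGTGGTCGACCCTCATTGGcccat
Creld2 (chr15:88819515-88819543, plus strand): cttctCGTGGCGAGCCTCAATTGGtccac
Herpud1 (chr8:94386372-94386392, plus strand): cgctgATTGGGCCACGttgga
Kdelr3 (chr15:79516373-79516390, plus strand): ccccgCCACGTCAccgcg
The Hspa5 match lies within the span that GENCODE M21 gives this gene, and the Herpud1 match within that of the antisense gene Gm15890. A match is a stretch of letters, and no binding was measured here.

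Row >3 cells of the SI carried more RNA of the ER machinery than centre cells did. Of the 39 genes, 34 were called higher and 0 lower, where 13.2% of all genes tested were called in either direction and 7.35% were called higher. All 39 had a log2 fold change above 0, from 0.53 for Spcs1 to 3.33 for Kdelr3, with a median of 1.18 against a median of 0 over all genes tested. In 35 of the 39 every row >3 library lay above every centre library, as did 12.8% of all genes. Without the 3 SI libraries of replicate 3, 33 were called higher, where 9.97% of all genes were, and the median was 1.43. When the replicate block within site was added to that fit, 39 were called higher, where 13.1% of all genes were. This fit with both changes, also given for other comparisons below, was chosen after seeing the data. It leaves out SI row >3 replicate 3, the lowest library of its group for 38 of the 39 genes. The block alone, on all libraries, gave 36, where 12.4% of all genes were called higher, and DESeq2 gave 35, where 8.9% were. With the 2 compared groups only, 25 were called higher, where 6.46% of all genes were, and the 9 lost were Hspa5 (adjusted p = 0.0555), Kdelr3 (adjusted p = 0.0977), Hsp90b1, Pdia4, Creld2, Ern2, Creb3l1, Spcs2 and Sec11c. Scaled by library size only, which shifted this contrast by -0.17 on the log2 scale, 26 were called, all higher. Those lost were Canx, Hsp90b1, Pdia4, Sel1l, Spcs2, Sec11c, Ssr3 and Ssr4. The calls over all genes went from 1964 higher and 1554 lower to 1426 higher and 1906 lower. In bulk libraries of sorted cells, a larger share of cells rich in these RNAs and more of these RNAs per cell cannot be told apart.

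**Figure D1:**
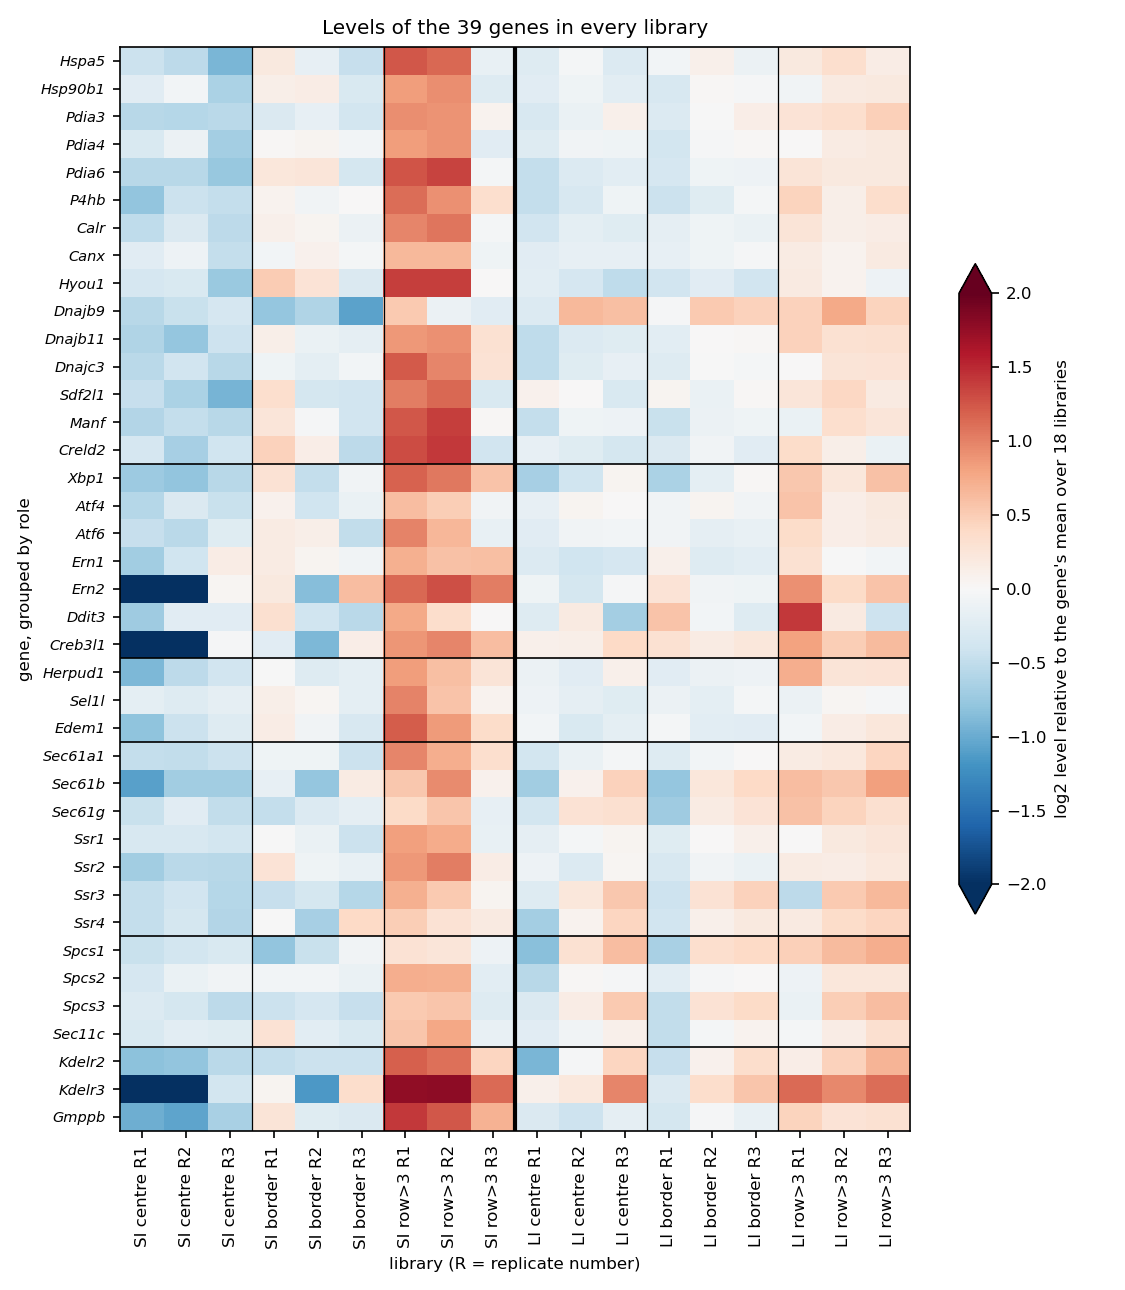
Level of each of the 39 genes (rows, grouped by role) in each of the 18 libraries (columns, R is the replicate number), as log2 of the normalised count relative to the gene's mean over all libraries, with colours capped at 2 in either direction. SI row >3 replicates 1 and 2 form the reddest columns, SI row >3 replicate 3 is paler, and the LI columns differ less between the Lgr5 levels.

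Among the chaperones and folding enzymes, 14 of 15 were called higher in row >3 than in centre cells of the SI, with a median log2 fold change of 1.38. Per kilobase of exonic length, Calr, the lectin chaperone calreticulin, had the highest level over the 6 groups, with 3053 normalised counts per kb in the SI centre group and 6915 in the SI row >3 group. Hspa5 (ENSMUSG00000026864, chromosome 2, 34771970 to 34777547 of mm10) encodes BiP, the central Hsp70 chaperone of the ER. Its level in replicates 1, 2 and 3 was 7426, 7005 and 5331 in SI centre, 11501, 8966 and 7307 in SI border and 23751, 22112 and 9003 in SI row >3 cells. In the LI it was 8426, 9732 and 8311 in centre, 9642, 10797 and 9278 in border and 11504, 12664 and 11080 in row >3 cells. The row >3 libraries lay above the centre libraries in both sites, and SI row >3 replicate 3 lay below every LI row >3 library. On the log2 scale, row >3 exceeded centre by 1.47 in the SI (SE 0.25, adjusted p = 6.84e-04) and 0.42 in the LI (SE 0.24, adjusted p = 0.82).

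Hsp90b1, the ER member of the Hsp90 family, had 9260, 10408 and 6994 in SI centre, 11723, 12085 and 8828 in SI border and 19397, 20735 and 9092 in SI row >3 cells. In the LI its 9 libraries lay between 8720 and 12491. SI centre and row >3 overlapped, since row >3 replicate 3 fell below centre replicates 1 and 2. The log2 fold change in the SI was 0.88 (SE 0.22, adjusted p = 0.0102), and the call was lost when SI centre replicate 3 or SI row >3 replicate 1 or 2 was left out (adjusted p up to 0.0788). P4hb, a protein disulphide isomerase, had 5861, 7542 and 7265 in SI centre, 10689, 9630 and 10170 in SI border and 22069, 19192 and 12857 in SI row >3 cells. The 3 SI levels did not overlap, and the log2 fold change was 1.39 (SE 0.18, adjusted p = 4.47e-05). In the LI, P4hb had 7285, 8092 and 9608 in centre, 7525, 8545 and 9925 in border and 13882, 10965 and 12957 in row >3 cells, where the row >3 libraries again lay highest.

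Dnajb11, a J-domain co-chaperone of BiP, had 1273, 1127 and 1459 in SI centre, 2099, 1764 and 1715 in SI border and 3527, 3654 and 2398 in SI row >3 cells. Dnajc3, another J-domain protein, had 1322, 1469 and 1298, then 1797, 1677 and 1842, then 4506, 3764 and 2354 in the same order. Neither gene overlapped between any 2 levels of the SI, and the log2 fold changes of row >3 over centre were 1.31 (SE 0.17, adjusted p = 4.85e-05) and 1.38 (SE 0.19, adjusted p = 7.34e-05). Hyou1, a large Hsp70-like chaperone that exchanges the nucleotide of BiP, had 2522, 2574 and 1903 in SI centre, 4489, 3848 and 2604 in SI border and 8226, 8219 and 3202 in SI row >3 cells. Sdf2l1, found in complexes with J-domain proteins of the ER, had 281, 250 and 204, then 489, 303 and 298, then 787, 865 and 314. Both rose in row >3 cells, Hyou1 by 1.49 (SE 0.25, adjusted p = 6.06e-04) and Sdf2l1 by 1.43 (SE 0.27, adjusted p = 0.00123) on the log2 scale. In the LI, Hyou1 ranged from 2217 to 3576 and Sdf2l1 from 316 to 516 over the 9 libraries.

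The isomerases Pdia3, Pdia4 and Pdia6 rose by 1.24, 0.93 and 1.60 on the log2 scale, and the lectin chaperones Calr and Canx by 1.18 and 0.71. Manf and Creld2, small ER proteins that are induced by ER stress, rose by 1.54 and 1.44, although Creld2 had 607 in SI row >3 replicate 3, within its centre range of 496 to 627. Exons of Manf overlap those of Dcaf1 and Rbm15b, which reached up to 94.1 and 77.1 CPM (counts per 1e+06 counts) as group means, so its reads are not assigned with certainty. The 7 genes with an ERSE match rose by 0.71 for Canx to 1.60 for Pdia6. The windows of Spcs1 and Kdelr3, which had the lowest and the highest log2 fold change of all genes described here, held no ERSE match. Without the SI libraries of replicate 3 the log2 fold change was 1.67 for Hspa5, 1.03 for Hsp90b1, 1.63 for P4hb, 1.59 for Dnajb11, 1.57 for Dnajc3, 1.70 for Hyou1 and 1.64 for Sdf2l1, all called.

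Dnajb9 was the chaperone that did not pass the test. This J-domain protein, which represses Ire1 and is itself an Xbp1 target, had 236, 253 and 273 in SI centre, 203, 228 and 165 in SI border and 497, 321 and 295 in SI row >3 cells. In the LI it had 288, 545 and 524 in centre, 341, 497 and 479 in border and 478, 585 and 473 in row >3 cells. All SI border libraries lay below all SI centre libraries, in contrast to 17 of the other genes, for which border lay above centre. For row >3 over centre of the SI it had a log2 fold change of 0.56 (SE 0.26, adjusted p = 0.189).

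Of the 7 UPR sensors and transcription factors, 6 were called higher in row >3 than in centre cells of the SI. Xbp1 (ENSMUSG00000020484, chromosome 11, 5520659 to 5525893), whose mRNA is spliced by Ire1 into that of a transcription factor for ER expansion, had 1252, 1202 and 1416 in SI centre, 2526, 1488 and 1971 in SI border and 4727, 4324 and 3100 in SI row >3 cells. Its LI levels were 1309, 1583 and 2162 in centre, 1333, 1812 and 2116 in border and 3032, 2431 and 3109 in row >3 cells. The 3 SI levels did not overlap, and in the LI row >3 lay above both others, which overlapped. Row >3 over centre gave a log2 fold change of 1.65 in the SI (SE 0.22, adjusted p = 7.34e-05) and 0.76 in the LI (SE 0.22, adjusted p = 0.431). Gene counts do not tell spliced from unspliced Xbp1.

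Ern1 and Ern2, the paralogous genes of Ire1, differed in how far SI replicate 3 stood from the rest. Ern1, the widely expressed form, had 754, 933 and 1360 in SI centre, 1374, 1278 and 1168 in SI border and 2013, 1840 and 1859 in SI row >3 cells. It was the exception among the 39 genes in that SI row >3 replicate 3 was not the lowest library of its group. Ern2 (ENSMUSG00000030866, chromosome 7, 122169893 to 122186207), the form of mucous epithelia, had 335, 628 and 2662 in SI centre, 2968, 1436 and 3955 in SI border and 5750, 6333 and 5245 in SI row >3 cells. Its LI levels were 2434, 2018 and 2531 in centre, 3123, 2467 and 2428 in border and 4845, 3381 and 3837 in row >3 cells. SI centre replicate 3 thus had an LI-like level of Ern2, and replicates 1 and 2 lay below every other library. The log2 fold change in the SI was 0.91 for Ern1 (SE 0.18, adjusted p = 0.00184) and 2.25 for Ern2 (SE 0.59, adjusted p = 0.0245). Without the SI libraries of replicate 3 it was 3.66 for Ern2 (adjusted p = 9.64e-07), while the call was lost without SI centre replicate 2 or SI row >3 replicate 1 or 2 (adjusted p up to 0.096).

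Creb3l1 (ENSMUSG00000027230, chromosome 2, 91982328 to 92024502), a membrane-bound transcription factor of secretory cells, followed Ern2. It had 668, 1036 and 4195 in SI centre, 3655, 2295 and 4664 in SI border and 7856, 8410 and 6556 in SI row >3 cells. In the LI it had 4564, 4615 and 5617 in centre, 5245, 4761 and 5005 in border and 7458, 5995 and 6644 in row >3 cells. Here too SI centre replicates 1 and 2 were the lowest of all libraries. It rose by 1.95 in the SI (SE 0.52, adjusted p = 0.025), and by 3.26 without the SI libraries of replicate 3 (adjusted p = 2.15e-09). As for Ern2, the call was lost without SI centre replicate 2 or SI row >3 replicate 1 or 2 (adjusted p up to 0.0926).

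Atf6, a sensor that is cut in the Golgi to release a transcription factor, rose by 0.99 (SE 0.21, adjusted p = 0.00305). Atf4, the factor translated when Perk or a related kinase slows protein synthesis, had 2026, 2449 and 2193 in SI centre, 3192, 2267 and 2745 in SI border and 4576, 4197 and 2852 in SI row >3 cells, and rose by 0.80 (SE 0.17, adjusted p = 0.00281). Ddit3, which encodes the pro-apoptotic factor CHOP, had 105, 148 and 148 in SI centre, 217, 131 and 119 in SI border and 293, 221 and 173 in SI row >3 cells. Its LI values were 145, 195 and 108 in centre, 258, 166 and 145 in border and 461, 196 and 130 in row >3 cells. The SI row >3 libraries lay above the centre libraries, the LI groups overlapped throughout, and the test was not passed in the SI (log2 fold change 0.79, SE 0.38, adjusted p = 0.202). Ddit3 shares exonic sequence with Mars on the opposite strand, which was at 646 to 1092 normalised counts in all SI and LI libraries, and the strand used for counting is not given in the sources used here. Xbp1, Ern1 and Atf4 rose by 1.89, 1.20 and 0.98 on the log2 scale without the SI libraries of replicate 3.

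All 3 genes of ER-associated degradation were called, although the call of Sel1l was lost when scaled by library size only. Herpud1, a membrane protein that organises the retrotranslocation complex, rose by 1.17 and Sel1l, the adaptor of the ubiquitin ligase of that complex, by 0.80. Edem1, which marks misfolded glycoproteins by trimming mannose, had 771, 1002 and 1134 in SI centre, 1506, 1282 and 1084 in SI border and 3123, 2451 and 1755 in SI row >3 cells. In the LI, Edem1 had 1304, 1101 and 1186 in centre, 1316, 1164 and 1161 in border and 1305, 1505 and 1577 in row >3 cells. Its SI row >3 libraries lay above all other libraries, and the log2 fold change in the SI was 1.34 (SE 0.19, adjusted p = 9.96e-05), or 1.66 without the SI libraries of replicate 3.

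Of the 7 translocon genes, 6 were called. Sec61a1, the pore of the channel, and Sec61b, a small subunit, rose by 1.17 and 1.38, and the third subunit, Sec61g, had a log2 fold change of 0.68 (SE 0.26, adjusted p = 0.0879). Sec61g was called higher without the SI libraries of replicate 3, with the replicate block within site and by DESeq2. Of the translocon-associated proteins, Ssr2 had 727, 809 and 805 in SI centre, 1426, 1109 and 1064 in SI border and 2158, 2394 and 1310 in SI row >3 cells. It had 1101, 977 and 1210 in LI centre, 946, 1123 and 1076 in LI border and 1320, 1308 and 1365 in LI row >3 cells. Border overlapped row >3 in the SI but lay above centre, and the log2 fold change of row >3 over centre was 1.33 (SE 0.19, adjusted p = 8.44e-05), or 1.57 without the SI libraries of replicate 3. Ssr3 had 2125, 2279 and 1993 in SI centre, 2151, 2336 and 2005 in SI border and 4870, 4246 and 3094 in SI row >3 cells, a log2 fold change of 0.93 (SE 0.28, adjusted p = 0.0357). Ssr1 and Ssr4 rose by 0.87 and 0.80. Without the SI libraries of replicate 3 the adjusted p was 0.0964 for Ssr3 and 0.0582 for Ssr4. Leaving out any 1 of the 6 libraries compared also lost Ssr4, and all but 1 of these fits lost Ssr3.

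The signal peptidase had the lowest median log2 fold change of the 6 roles, at 0.67. Spcs2 and Sec11c, an accessory and a catalytic subunit, were called at adjusted p-values of 0.0453 and 0.0275, and the accessory subunits Spcs1 and Spcs3 were not, at 0.337 and 0.0831. Spcs3 had 985, 929 and 824 in SI centre, 883, 940 and 858 in SI border and 1699, 1741 and 991 in SI row >3 cells. SI row >3 replicate 3 lay just above the highest centre library, and the other row >3 libraries well above it. Leaving out single SI libraries, Spcs2 and Sec11c were lost in 5 of the 6 cases. Spcs3 was called higher with the replicate block within site and without SI row >3 replicate 3. With the block and without all SI libraries of replicate 3, both Spcs1 and Spcs3 were called higher.

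The receptors Kdelr2 and Kdelr3 and the enzyme Gmppb had the highest median log2 fold change of the 6 roles, at 2.04. Gmppb (ENSMUSG00000070284, chromosome 9, 108049242 to 108052801) encodes the enzyme that makes GDP-mannose, the mannose donor for glycosylation. It had 280, 265 and 352 in SI centre, 661, 465 and 450 in SI border and 1477, 1309 and 898 in SI row >3 cells. Its LI levels were 452, 415 and 486 in centre, 434, 546 and 500 in border and 749, 667 and 687 in row >3 cells. The 3 SI levels did not overlap, SI centre lay below and SI row >3 above all LI libraries, and the log2 fold change was 2.04 (SE 0.21, adjusted p = 1.07e-05), or 2.36 without the SI libraries of replicate 3. Exons of Gmppb overlap Rnf123 on the opposite strand, whose levels were 1033, 952 and 853 in the centre libraries of the SI and 850, 1045 and 1121 in its row >3 libraries.

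Kdelr2 and Kdelr3 encode receptors that return escaped chaperones from the Golgi to the ER. Kdelr2 rose by 1.66 (SE 0.29, adjusted p = 7.83e-04), and by 1.96 without the SI libraries of replicate 3. Kdelr3 (ENSMUSG00000010830, chromosome 15, 79516411 to 79527739) had 12.2, 1.84 and 75.5 in SI centre, 102, 44.1 and 124 in SI border and 333, 335 and 214 in SI row >3 cells. In the LI it had 105, 113 and 191 in centre, 79.8, 125 and 143 in border and 213, 189 and 211 in row >3 cells. SI centre replicate 2 rested on 2 counts, the lowest of any of the 39 genes in any library. The log2 fold change was 3.33 (SE 0.60, adjusted p = 0.00102), and 5.50 without the SI libraries of replicate 3 (adjusted p = 1.41e-07), while the call was lost with the compared groups only (adjusted p = 0.0977). Kdelr3 exons overlap Ddx17 on the opposite strand, a far more abundant gene with 4963, 5075 and 5650 in the centre libraries of the SI and 4870, 4640 and 4693 in its row >3 libraries.

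**Figure D2:**
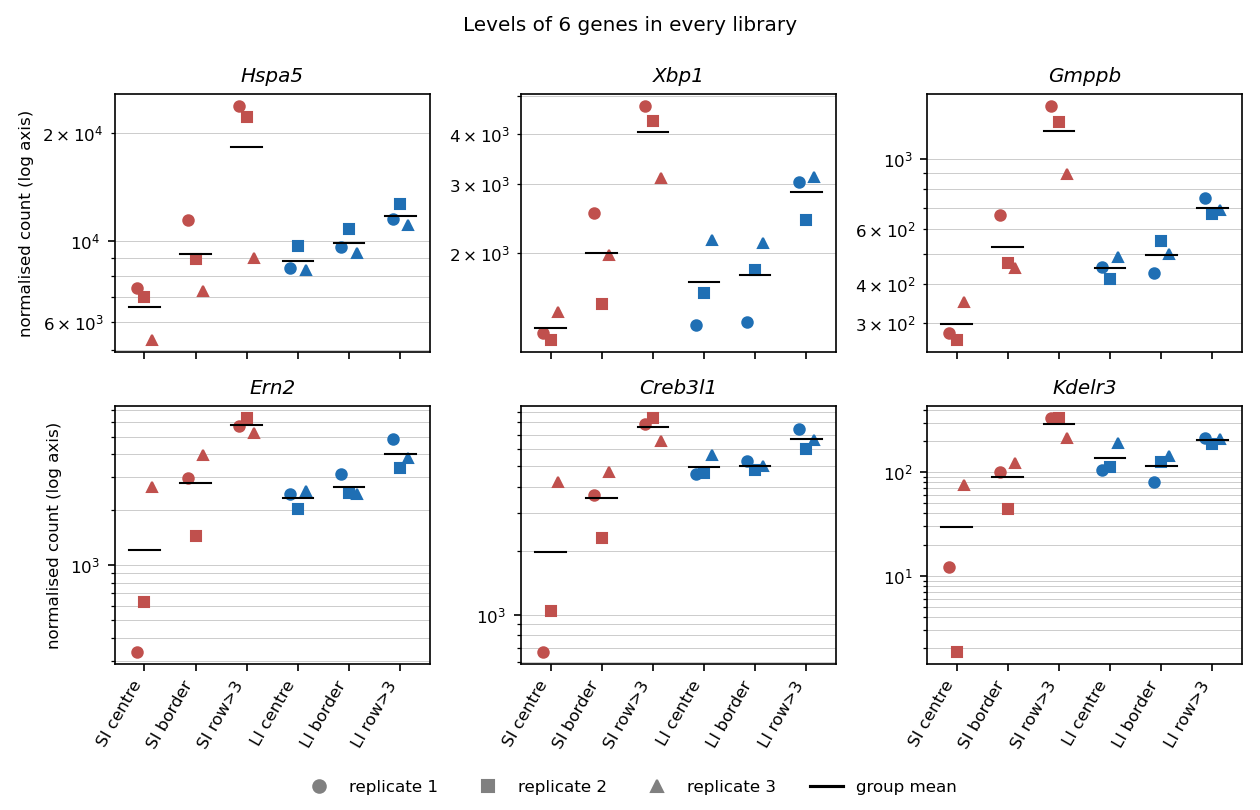
Normalised count (log axis) of 6 genes in each library, by group, with the replicate number as the symbol and the group mean as a black line. For Ern2, Creb3l1 and Kdelr3, SI centre replicates 1 and 2 lie below every other library and replicate 3 does not.

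In the LI the fold changes were smaller for 38 of the 39 genes, although the difference between the sites was not called for any of them. All 39 genes had a log2 fold change above 0 between row >3 and centre cells, with a median of 0.40 and a range from 0.10 for Ssr3 to 0.80 for Ddit3, but 0 were called, where 0.0187% of all genes were. Of the 39, 13 had an unadjusted p under 0.05, as did 6.96% of all genes, and DESeq2 called 1, where it called 0.349% of all. Every row >3 library lay above every centre library for 25 of the 39 genes, and for 7.57% of all genes. Dnajb11 had the smallest p, with 1357, 1602 and 1642 in LI centre, 1666, 1943 and 1967 in LI border and 2679, 2403 and 2427 in LI row >3 cells. These 3 levels did not overlap, and the log2 fold change of row >3 over centre was 0.71 (SE 0.17, adjusted p = 0.213). P4hb had 0.60 (SE 0.17, adjusted p = 0.431). With the replicate block within site, Dnajb11, Pdia3, Sec61a1 and Xbp1 were called higher, where 1.28% of all genes were, and without the SI libraries of replicate 3, which change the shared estimate of the spread, 5 were, where 0.982% of all genes were. With both, 18 were called higher, where 3.74% of all genes were. By library size only, 38 of the 39 lay above 0.

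**Figure D3:**
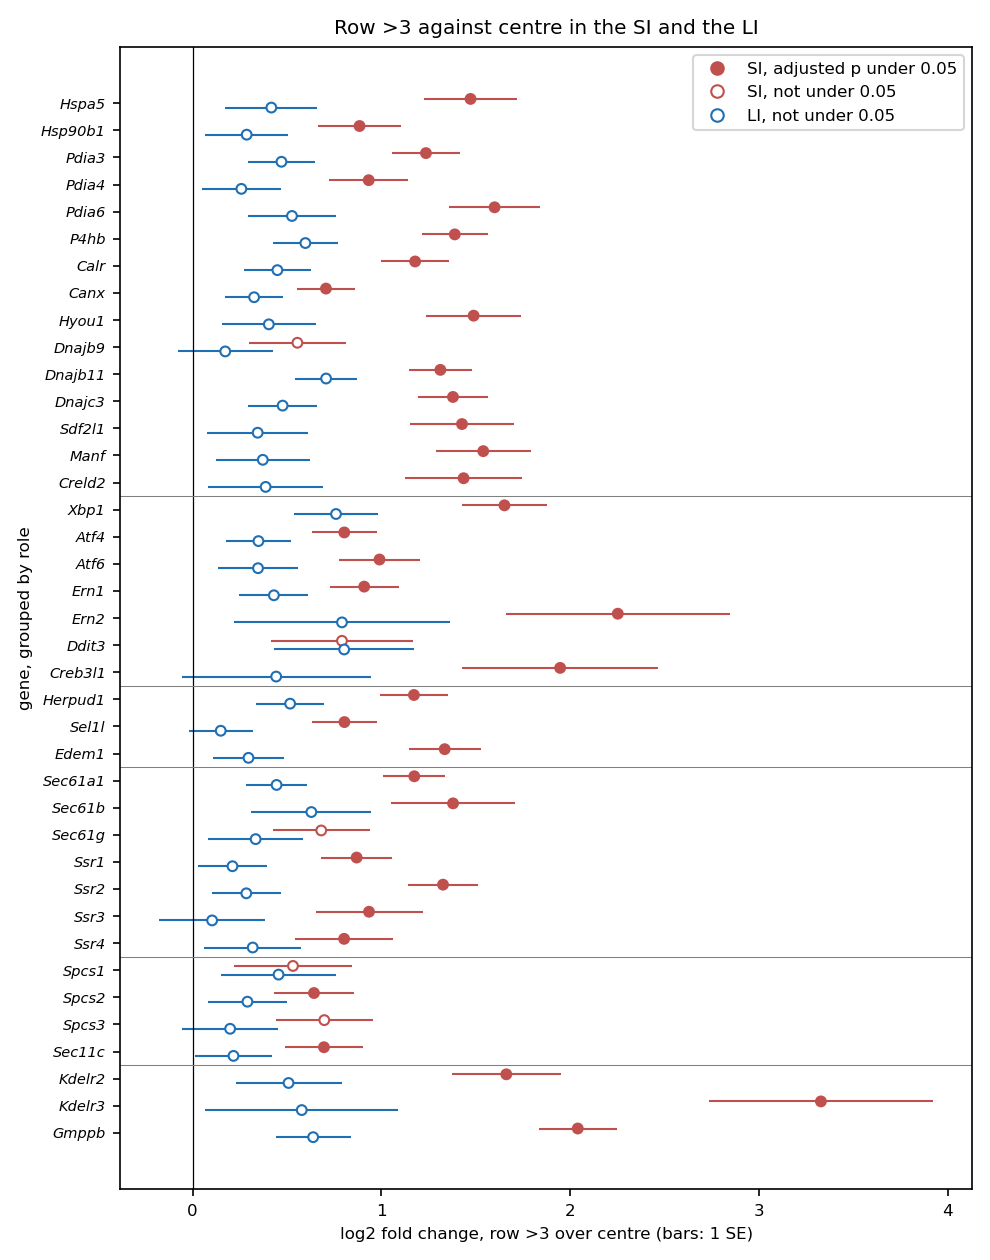
Log2 fold change of row >3 over centre cells for each of the 39 genes, in the SI and the LI, with bars of 1 standard error. Filled points have an adjusted p under 0.05. The SI point lies to the right of the LI point for all genes but Ddit3, where they nearly coincide.

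Of the 39 genes, 36 had group means in the order centre, border, row >3 in the SI, as did 19.6% of all genes tested, and 28 did in the LI, as did 19.2% of all. Border was not tested against row >3. When SI border was compared with SI centre, edgeR called 0 of the 39 genes, where 0.0112% of all genes were, and 11 had an unadjusted p under 0.05, as did 8.98% of all. DESeq2 called 1 of the 39 and 0.785% of all genes. The median log2 fold change was 0.37, and border libraries lay above centre libraries without overlap for 17 genes and below for 1, against 4.15% of all genes above. Gmppb had a log2 fold change of 0.79 (SE 0.20, adjusted p = 0.19), Ssr2 of 0.61 (SE 0.19, adjusted p = 0.276) and P4hb of 0.55 (SE 0.17, adjusted p = 0.292). With the replicate block within site, Gmppb, Hyou1 and Pdia6 were called higher, where 1.55% of all genes were. Without the SI libraries of replicate 3, 6 genes were called higher, the same 3 with Creb3l1, Ern2 and Kdelr3, where 0.905% of all genes were. Both changes together gave 15, where 1.74% of all genes were called higher. In the LI, 0 of the 39 genes were called between border and centre cells, as were 0% of all genes, and 0 had an unadjusted p under 0.05, where 1.38% of all genes did. DESeq2 called 0 of the 39 and 0% of all genes. The median log2 fold change was 0.04, and 3 genes, Calr, Dnajb11 and Ern1, did not overlap, where 2.89% of all genes lay higher without overlap. Dnajb11, Ern1 and Dnajc3 had the smallest p-values, with log2 fold changes of 0.27, 0.22 and 0.19 and an adjusted p of 1 each.

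Ratios between libraries of the same replicate number differed among the replicates. Row >3 over centre in the SI had a median ratio over the 39 genes of 2.78 in replicate 1, 2.45 in replicate 2 and 1.54 in replicate 3. In the LI the medians were 1.50, 1.30 and 1.22. The ratio was above 1 in all 3 replicates for 38 of the 39 genes in the SI, the exception being Spcs2, and for 35 in the LI. In the SI the ratio of replicate 3 was the lowest for 38 of the 39 genes. The median log2 ratio over all genes detected in both libraries lay between -0.04 and 0.02 in these 6 pairs.

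**Figure D4:**
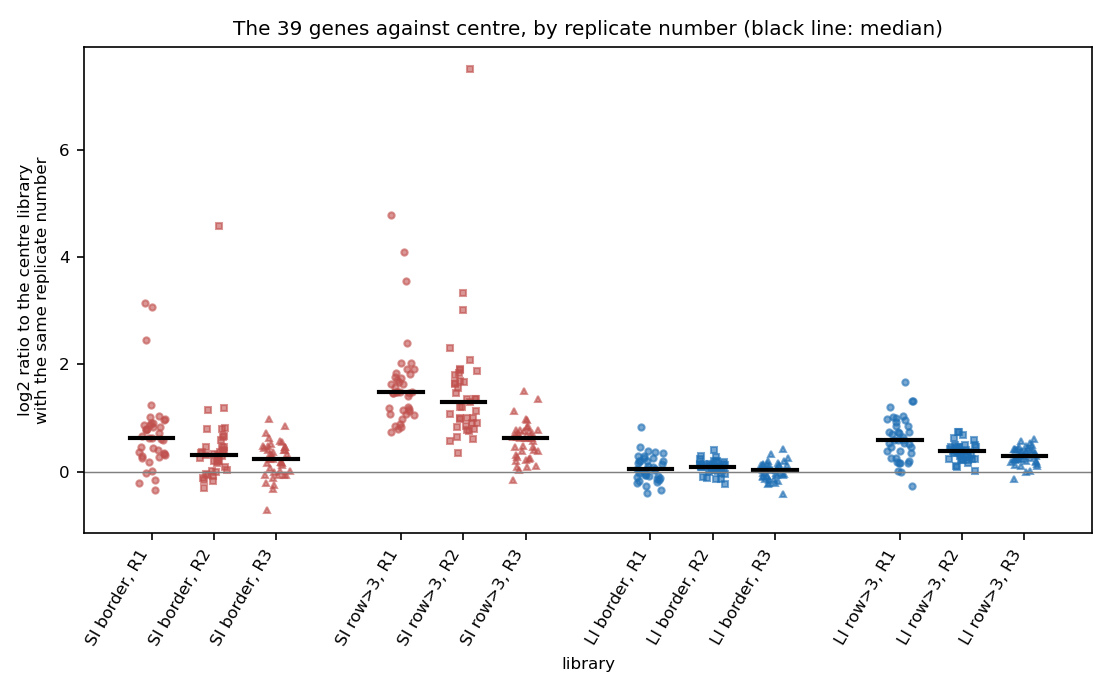
Log2 ratio of border or row >3 to the centre library of the same replicate number, for each of the 39 genes (points), with their median (black line). Medians of SI row >3 were 1.47, 1.29 and 0.62 in replicates 1, 2 and 3, and the topmost point, Kdelr3 in replicate 2, rests on a centre library with 2 counts.

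Whether the difference with Lgr5 level depended on the site was tested as the difference between the SI and LI contrasts. For row >3 against centre it was above 0 for 38 of the 39 genes, with a median of 0.73 on the log2 scale, but 0 genes were called, as were 0% of all genes tested. Of the 39, 23 had an unadjusted p under 0.05, as did 6.74% of all genes, and DESeq2 called 3, where it called 0.56% of all. The smallest p-values were those of Gmppb (1.40, SE 0.28, adjusted p = 0.113), Ssr2 (1.04, SE 0.26, adjusted p = 0.196) and Edem1 (1.04, SE 0.27, adjusted p = 0.214). With the replicate block within site, 13 were called higher, where 1.51% of all genes were, and without the SI libraries of replicate 3, 24 were, where 2.57% were. With both, 32 were called higher, where 5.44% of all genes were. For border against centre, 0 of the 39 genes and 0% of all genes were called, with 3 of the 39 and 2.65% of all genes at an unadjusted p under 0.05. DESeq2 called 0 of the 39 and 0.00751% of all. With the block and without these libraries, 2 were called higher, where 0.409% of all genes were. Ssr2, Gmppb and Kdelr3 came first, at 0.67, 0.66 and 1.85, each with an adjusted p of 1. Whether a larger rise in the SI than in the LI was called thus varied with the fit and with the libraries kept. Why it varied was not tested.

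Between groups of the 2 sites with the same GFP label, few of these genes were called. The label does not fix the level of Lgr5 RNA. Lgr5 had 2575, 2327 and 2176 in LI centre, 1676, 1492 and 1184 in LI border and 134, 466 and 262 in LI row >3 replicates 1, 2 and 3. In the SI it had 5252, 4191 and 2434 in centre, and 157 in border replicate 3. In centre cells, 38 of the 39 had a log2 fold change of SI over LI below 0, with a median of -0.39, and 0 were called, where 1.99% of all genes were. Of the 39, 16 had an unadjusted p under 0.05, as did 14.5% of all genes, and DESeq2 called 3, where it called 4.66% of all. For 16 genes, and for 8.65% of all genes, every SI centre library lay below every LI centre library. Among the 16 were Hspa5, Pdia3, Creb3l1, Ssr1 to Ssr3 and Gmppb. The smallest p-values were those of Kdelr3 (log2 fold change -2.27, SE 0.60, adjusted p = 0.0571), Dnajb9 (-0.90, SE 0.26, adjusted p = 0.0715) and Gmppb (-0.65, SE 0.20, adjusted p = 0.104). Without the SI libraries of replicate 3, 8 were called lower, where 6.39% of all genes were. In border cells the median was -0.07 and 1 gene, Dnajb9, was called lower in the SI (log2 fold change -1.21, SE 0.27, adjusted p = 0.0207), where 1.75% of all genes were called. It was lost in 4 of the 6 fits that left out 1 border library, namely SI replicates 1 and 3 and LI replicates 2 and 3, and with the border groups only. With the replicate block over all libraries its adjusted p was 0.0106. When the SI libraries of replicate 3 were left out, Dnajb9 and Creb3l1 were called lower, where 4.4% of all genes were, and Hyou1 was called higher, where 3.7% of all genes were. Ssr3 (-0.68, SE 0.28, adjusted p = 0.276) and Spcs3 (-0.58, SE 0.26, adjusted p = 0.309) followed.

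In row >3 cells, 31 of the 39 genes had a log2 fold change of SI over LI above 0, with a median of 0.40. Gmppb (0.75, SE 0.20, adjusted p = 0.0303), Hyou1 (0.93, SE 0.25, adjusted p = 0.0377) and Edem1 (0.68, SE 0.19, adjusted p = 0.0407) were called higher, where 2.76% of all genes were called higher and 4.09% in either direction. Each fit that left out 1 of the 6 row >3 libraries lost all 3, except that without SI row >3 replicate 3, which called 17 of the 39 genes higher, these 3 included, where 3.89% of all genes were. Without the 3 SI libraries of replicate 3, 23 were called higher, where 6.8% of all genes were. DESeq2 called 7 higher on all libraries, where 4.25% of all genes were. By library size only, 0 were called, and the 3 genes had log2 fold changes of 0.71, 0.91 and 0.64.

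Most of the goblet cell markers listed moved with the ER genes. The summed level of 9 goblet and deep crypt secretory markers lay between 15915 and 242315 normalised counts in SI centre, 93445 and 304892 in SI border and 707162 and 1067333 in SI row >3 libraries. In the LI it lay between 170117 and 286950 in centre, 226226 and 330520 in border and 358089 and 564730 in row >3 libraries. Muc2, the major intestinal mucin, had 7468, 15661 and 142535 in the centre libraries of the SI and 471405, 346114 and 353346 in its row >3 libraries, and none of the 9 markers was at 0 in all libraries. Muc2 and Fcgbp weighed most in the sum, with 471405 and 490596 of 1067333 in SI row >3 replicate 1. In the SI, 6 of the 9 were called higher in row >3 than in centre cells, with Fcgbp, Tff3, Agr2 and Spdef among them, and Clca1 was called lower. Reg4 (adjusted p = 0.80) and Spink4 (adjusted p = 0.0631) were not called. SI centre replicate 3, which had the highest sum of these markers among the SI centre libraries, was the highest of them for 19 of the 39 ER genes, Ern2, Creb3l1 and Kdelr3 included, and the lowest for 14, Hspa5, Hsp90b1 and Hyou1 included. The part of goblet cells in the difference of the ER genes was not tested. The 6 Paneth markers summed to 34823, 161603 and 38619 in SI centre replicates 1, 2 and 3. They summed to 73114, 124832 and 11110 in SI border, to 65545, 95014 and 4324 in SI row >3 and to at most 245 in LI libraries. Between row >3 and centre cells of the SI, 0 of them were called. Their standard errors were 0.87 to 1.14 on the log2 scale, so this does not show equal levels. The part of Paneth cells in the difference of the ER genes was not tested. Plasma cells are another cell type with a large ER. In these cells, sorted as Epcam+, all 6 plasma cell markers stayed under 50 normalised counts in every library. Their sum reached at most 80.2, and the part of plasma cells was not tested. Among the other lists, 3 of 7 absorptive markers were called higher and 3 of 5 stem cell markers lower in SI row >3 than in SI centre cells, and 0 of 5 enteroendocrine, 4 tuft, 4 immune and 4 stromal markers were called. Of the epithelial markers Epcam, Krt8 and Cdh1, which summed to 43580 to 106703 in all 18 libraries, Krt8 and Cdh1 were called higher.

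**Figure D5:**
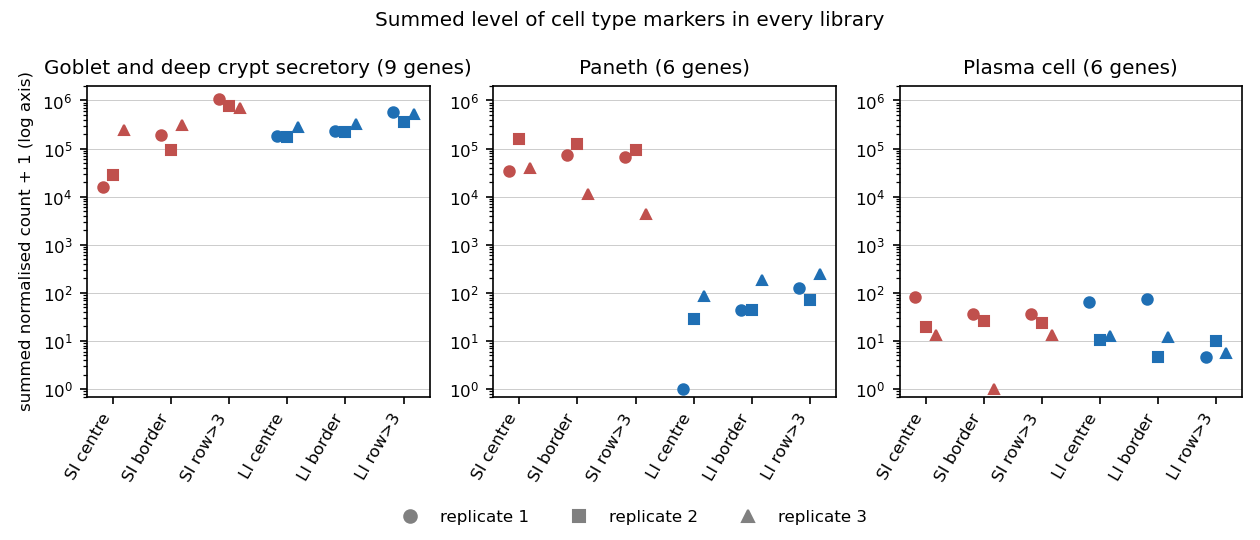
Summed normalised count plus 1 (log axis) of goblet and deep crypt secretory, Paneth and plasma cell markers in each library, by group and replicate number. The goblet sum is highest in SI row >3 libraries, Paneth markers separate SI from LI, and plasma cell sums stay at 80.2 or below.

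A list of 61 other genes of the secretory pathway, none of them among the 39, was read in the same fit. Of the 61, 41 were called higher and 0 lower in row >3 than in centre cells of the SI, where 7.35% of all genes were called higher, with a median log2 fold change of 0.88, and 0 were called in the LI, with a median of 0.31. The smallest adjusted p-values were those of Edem3, which trims mannose from misfolded glycoproteins (1.66, SE 0.19, adjusted p = 1.88e-05), and Sec24d, a cargo adaptor of COPII vesicles (2.32, SE 0.26, adjusted p = 1.88e-05). Syvn1, the ubiquitin ligase of ER-associated degradation, and Txndc5, a disulphide isomerase, followed at 1.50 (SE 0.20, adjusted p = 6.56e-05) and 2.42 (SE 0.29, adjusted p = 7.34e-05). Eif2ak3, which encodes Perk, rose by 1.09 (adjusted p = 1.63e-04). Between the sites, Surf4, Copb1, Sec24d and Rpn2 were called lower in SI than in LI centre cells, and Creb3l2, Txndc5 and Syvn1 higher in SI than in LI row >3 cells.

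Of 11 listed targets of the Atf4 branch, 1 was called higher and 1 lower in row >3 than in centre cells of the SI, where 7.35% of all genes were called higher and 5.82% lower. The log2 fold change was above 0 for 9 of the 11, with a median of 0.53. Chac1, a glutathione-degrading enzyme induced by Atf4, was called higher (2.92, SE 0.81, adjusted p = 0.0152) at low levels of 17.8, 5.53 and 0 in the centre libraries of the SI, against 131, 26.9 and 14.05 in its row >3 libraries. Phgdh, the first enzyme of serine synthesis, was called lower (-2.60, SE 0.29, adjusted p = 1.88e-05), with 618, 490 and 327 in the centre libraries of the SI, against 90.3, 82.9 and 57.8 in its row >3 libraries. Its LI libraries ranged from 225 to 472. Atf3 and Ppp1r15a, which encode a stress-induced transcription factor and the phosphatase subunit that restores translation, were called lower in the SI than in the LI at each of the 3 Lgr5 levels, by 1.90, 1.78 and 1.54 and by 1.62, 1.17 and 1.16 on the log2 scale in centre, border and row >3 cells. In row >3 cells, Chac1 was called higher in the SI than in the LI (2.82, SE 0.81, adjusted p = 0.0436). Phgdh was called lower there (-1.81, SE 0.29, adjusted p = 5.78e-04).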

How the data were processed

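Sorted cells of 6 groups were sequenced with a stranded SMART-Seq kit and paired reads. After trimming and alignment to mm10 with STAR, the authors deposited raw counts for each gene in each library. They also deposited a signal table of counts divided by DESeq2 size factors, from which levels are printed (1 factor per library, relative deviation at most 5.33e-15). For the annotation release and the counting strand, the sources used here give nothing. Totals of 8312093 to 31940965 counts set the precision.

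The counts were tested with edgeR 4.0.16 in R 4.3.3 (TMM, genes with a mean count above 0, robust quasi-likelihood fit of 6 groups, 12 residual degrees of freedom), with Benjamini-Hochberg adjustment over 26717 genes. Alternatives were DESeq2 1.42.0, other filters and scalings, the compared groups only, the replicate block and libraries left out. Libraries of equal number within a site correlated at 0.32 to 0.772 in their deviations from the group means (18 pairs, 10223 genes) and were treated as pairs in the block. Of the groups compared across the sites, only border had all 3 correlations over 0.1 (0.194 to 0.240).

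The genes, lists and tests were chosen with earlier results of these data known. Values in every SI library are given for 10 listed genes, for up to 6 called genes per comparison and direction with the smallest adjusted p, and otherwise for the 3 with the smallest p. LI values are given for part of these genes, for each library or as a range. Lengths and positions come from GENCODE M21, in which all 39 genes were found, and promoters from RefSeq. Figures used matplotlib 3.10.9.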

Additional observations from a re-analysis of the deposited data

How the results depend on the processing

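The count of 34 genes called higher in row >3 than in centre cells of the SI lay between 25 and 39 over all alternatives, all of them higher. It was 35 by DESeq2, 25 with the compared groups only, 26 by library size only and 27 to 35 when 1 library was left out, lowest without SI row >3 replicate 1 or 2. For LI border against centre every alternative gave 0. With the replicate block within site, the counts were 36 for SI row >3, 3 for SI border, 4 for LI row >3 and 13 for the site difference of row >3. Without the SI libraries of replicate 3 they were 33, 6, 5 and 24, with 8, 3 and 23 between the sites (centre, border, row >3) and 1 for the site difference of border. An older form of the quasi-likelihood fit (34 for SI row >3) and both changes together were chosen after seeing the data, and the latter gave 39, 15, 18 and 32 and 2 for the site difference of border, all higher, with the shares of all genes given above. DESeq2 gave 1 for SI border, 1 for LI row >3, 7 between the sites in row >3 cells, 3 in centre cells and 3 for the site difference of row >3. The compared groups only gave 2 for LI row >3, 0 between the sites in border and 1 in row >3 cells. For these fits and those that follow, shares of all genes are given only where stated above. Counts without such a share show only how the calls moved with the fit. They do not tell whether these genes moved more than all genes did, since the calls over all genes moved too. For SI row >3 against centre these were 3518 in the main fit and 6103 with the replicate block within site. Between the sites, edgeR's filterByExpr gave 1 in centre and 5 in row >3 cells, RLE factors 5 and no filter 1 in row >3 cells, library size only 1 in centre and 0 in row >3 cells, and the replicate block over all libraries 2 in centre and 5 in row >3 cells. Leaving out 1 library gave 0 to 3 for SI border (3 without SI centre replicate 3), 0 to 3 between the sites in centre (3 without SI centre replicate 3, 2 without LI centre replicate 1), 0 to 1 in border and 0 to 17 in row >3 cells, 0 to 2 for the site difference of border and 0 to 12 for that of row >3 (12 without SI row >3 replicate 3, 4 without SI centre replicate 3).

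For the single genes named, 566 fits left the call as it was, 43 added one, 42 removed one and 0 turned the direction. SI row >3 replicate 3 was the lowest library of its group for 38 of 39 genes. With 3 replicates per group, a miss at this threshold does not show equal levels. Low counts limit Kdelr3 most, with 2 counts in 1 library.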
